A study of Mus musculus with 24 samples.

Results

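A set of 2393 liver iNKT cell nuclei carried many open-chromatin fragments at the loci of the cytokine genes Il10 and Il21. Nuclei were profiled by single-nucleus ATAC-seq, in which a transposase cuts accessible DNA and every fragment is tagged with the barcode of its nucleus. The deposited file held barcodes with 2 numeric endings, 1 and 2. The nuclei were selected on their own readout: an ending 2 barcode with at least 5000 fragments was a member if 4 or more of its fragments overlapped either of 2 windows of the GRCm38 build, chr1:130990000-131025000 around Il10 or chr3:37222000-37284000 around Il21. This rule took 47.4% of the 5046 ending 2 barcodes (exact 95% interval 46.0 to 48.8, which covers counting error only), among 10456 barcodes of both endings. The 1435 ending 2 barcodes with at most 1 such fragment served as the comparison set (28.4%), and the remaining 1218 had 2 or 3.

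iNKT cells are T cells with a nearly invariant receptor that recognises glycolipids such as α-galactosylceramide (αGalCer) presented by CD1d, and they depend on the transcription factor PLZF, encoded by Zbtb16. T-regulatory type 1 (Tr1) cells are Foxp3-negative T cells known for secreting interleukin 10, often together with interleukin 21, and for carrying receptors such as LAG-3 and PD-1. Interleukin 10 restrains antigen-presenting cells, and interleukin 21 acts on B cells and is a product of follicular helper cells.

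The study treated NOD mice intravenously with iron oxide nanoparticles coated with αGalCer-loaded CD1d (αGalCer/CD1d-NPs) and compared their liver iNKT cells with those of untreated NOD mice. Live TCRβint, αGalCer/CD1d tetramer+ cells were sorted from livers, and nuclei were pooled from 5 untreated and from 4 treated male mice, 13 to 15 weeks old by the labels, into 1 library per group. Neither the labels nor the header of the file says which barcode ending belongs to which group, so the endings are used by number and no group is assigned to them. With 1 library and pooled animals there are no replicates, and every comparison below is between sets of barcodes and describes these libraries. The SmartSeq2 cells and the bisulfite-sequenced DNA used further on came from liver tetramer+ cells of untreated and treated NOD mice, with 1 deposited sample per group.

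The member nuclei had fragments over the whole of both windows (described here without a test, since these fragments chose them). A level is the number of fragments overlapping a feature per 1000 barcodes, after each barcode had been thinned at random to 5000 fragments. The Il10 window had a level of 1716 in members and 216 in comparison barcodes, and the Il21 window 1224 and 86.4. The Il10 promoter (2 kb on either side of the start site) had levels of 272 and 24.4, and the Il21 promoter 192 and 4.88. The strongest 500-base stretch lay 25.75 kb upstream of Il10, with levels of 254 and 48.1. It was also the strongest stretch of the Il10 window in comparison barcodes. Stretches 16.25, 19.25 and 23.25 kb upstream of Il10, with levels of 161, 111 and 91.1 in members, held 3.48, 2.79 and 1.39 in comparison barcodes, and the stretch at 9.25 kb upstream held 168 and 39.0. At Il21 the strongest stretches were 25.25 kb upstream (153 and 13.2), 27.25 kb upstream (148 and 6.27) and at the promoter itself (137 and 3.48). Just beyond the Il10 window, 6.25 kb downstream of the start site, both sets were open, with levels of 192 and 174, whereas at 18.25 kb downstream, which the rule did not use, the levels were 38.4 and 4.88.

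**Figure D1:**
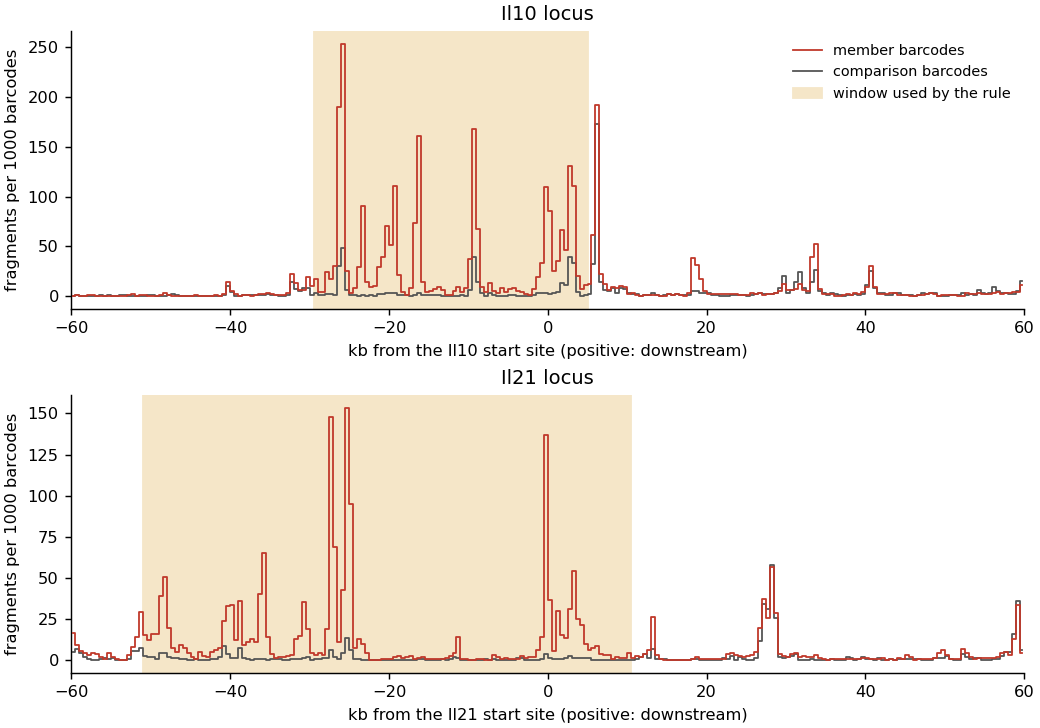
Fragments per 1000 barcodes in 500-base steps, by distance in kb from the start sites of Il10 (top) and Il21 (bottom), for member and comparison barcodes of ending 2, with the windows of the rule shaded. Inside the shading the red line stands above the dark line by construction; at 6.25 kb downstream of Il10, outside it, the levels are 192 and 174.

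The 2 strongest separate 500-base stretches of each locus in members are shown as the 200 bases within them that held the most fragment ends. They hold only part of the fragments the rule used. Their levels were 254 and 168 at Il10, of 1716 in the window, and 153 and 148 at Il21, of 1224. Each is RefSeq sequence of GRCm38.p6 on the + strand. Capitals mark matches on either strand to the motifs of AP-1 (TGANTCA), NFAT (TGGAAA), T-box (AGGTGTGA), Runx (TGTGGTT), ETS (AGGAAGTG), NR4A (AAAGGTCA) or IRF factors. All 4 sites lie upstream of the gene they are named for.
Il10 upstream site, chr1:130993845-130994044: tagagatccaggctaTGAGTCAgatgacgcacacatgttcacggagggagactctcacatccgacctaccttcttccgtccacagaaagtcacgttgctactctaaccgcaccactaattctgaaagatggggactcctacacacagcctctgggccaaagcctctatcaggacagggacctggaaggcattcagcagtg
Il10 proximal site, chr1:131010585-131010784: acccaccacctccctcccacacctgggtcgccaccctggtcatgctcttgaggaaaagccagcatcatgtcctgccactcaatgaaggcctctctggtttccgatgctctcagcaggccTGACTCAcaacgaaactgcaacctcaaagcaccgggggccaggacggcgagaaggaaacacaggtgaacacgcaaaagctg
Il21 upstream site, chr3:37257801-37258000: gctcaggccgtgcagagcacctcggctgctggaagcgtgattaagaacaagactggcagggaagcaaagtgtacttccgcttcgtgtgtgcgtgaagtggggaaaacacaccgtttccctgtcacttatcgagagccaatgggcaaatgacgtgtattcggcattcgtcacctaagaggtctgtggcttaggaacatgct
Il21 far upstream site, chr3:37259651-37259850: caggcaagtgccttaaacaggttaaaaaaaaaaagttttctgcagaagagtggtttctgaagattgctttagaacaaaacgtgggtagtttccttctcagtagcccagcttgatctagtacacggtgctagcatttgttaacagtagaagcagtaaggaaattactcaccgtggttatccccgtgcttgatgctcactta
Both Il10 sites held 1 AP-1 match each, TGAGTCA at bases 16 to 22 of the first and TGACTCA at bases 120 to 126 of the second. The Il21 sites held none of these letter strings. Among all tested 500-base sites of the genome, 13.7% held an AP-1 match somewhere in their length.

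Of the members, 88.2% had fragments in both windows, 9.44% in the Il10 window alone and 2.38% in the Il21 window alone, which describes the fragments the rule used, before thinning, and is no sign of joint opening. The loci can be read against each other, since choosing by one leaves the other free. The 2063 ending 2 barcodes with at least 3 Il10 fragments had an Il21 level of 1026 (982 to 1070), beside 402 (366 to 441) in the 1134 barcodes with no Il10 fragment. The 2117 barcodes with at least 2 Il21 fragments had an Il10 level of 1412 (1362 to 1464), beside 727 (690 to 766) in the 1962 barcodes with none. At the threshold itself, 560 barcodes had exactly 3 fragments and a median of 11595.5 fragments in all, and 448 had exactly 4 and a median of 11281. Another 475 had 12 or more.

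Members were sequenced more deeply than the comparison barcodes, with medians of 14301 (5039 to 527233) and 8944 fragments before thinning, and a deep nucleus reaches 4 fragments more easily. Members held 49.0% of their fragments in promoters and comparison barcodes 49.8%, and fragments shorter than a nucleosome made up 38.4% and 40.6%. Doublets were not called. Barcodes of over 20000 fragments made up 23.3% of members and 3.14% of comparison barcodes, and 42 barcodes of 16 bases occurred with both endings at 5000 fragments or more. Among ending 2 barcodes of 5000 to 10000 fragments, 558 of 1941 (28.7%) were members. The file held 167180637 fragments, 80765701 of them with ending 2.

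T cell chromatin was open in both sets. The promoters of 10 T and iNKT cell markers, among them Cd3e, Cd3d, Thy1, Il2rb, Zbtb16 and Cxcr6, summed to a level of 2364 in members and 2231 in comparison barcodes, and 9 of the 10 stayed within 1.5-fold. The exception was Klrb1c (NK1.1), at 9.19 and 34.1. Markers of other cells were low at promoters: 7 B cell markers summed to 72.7 and 96.9, 8 macrophage markers to 92.4 and 100, and 7 hepatocyte markers to 31.8 and 15.3, with Ttr and Serpina1a at 0 in members. Cd14 alone gave 81.9 and 77.4 of the macrophage sums. The 6 endothelial markers summed to 286 and 217, of which Pecam1, which T cells also express, gave 270 and 201. The 4 markers of Foxp3+ and CD8 T cells summed to 319 and 322, most of it the Foxp3 promoter (248 and 259). Over gene bodies the B cell markers summed to 437 and 241, the macrophage markers to 40.5 and 76.0, with Csf1r lower (15.5 and 38.3), the hepatocyte markers to 59.8 and 59.2, the endothelial markers to 851 and 556, with Pecam1 higher (738 and 414), and the Foxp3 and CD8 markers to 218 and 190. Bodies of Blk (206 and 59.9), which was called, and Pax5 (145 and 113), which was not, made most of the B cell difference. Cd79a was also called higher (41.0 and 24.4), while Ms4a1 (7.10 and 6.97) and Cd79b (2.51 and 2.09) were too low to be tested. The part of other cells in the results below was not tested beyond these values.

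Away from the 2 loci, 954 of 16214 tested promoters (5.88%) were at least 1.5-fold higher in members and 628 (3.87%) at least 1.5-fold lower, with a median ratio of 0.978. A promoter was tested where the mean level of the sets was at least 20, which left 16214 of 53838, and one past either limit is called. Of the gene bodies, taken outside the promoter, 12691 of 29642 were tested, 1466 (11.6%) were higher, 907 (7.15%) were lower, and the median ratio was 1.05. At least 2-fold higher were 369 promoters and 398 bodies, and at least 2-fold lower 224 and 202. The exact interval of the ratio, which covers counting error only, left out 1 for 924 of the 954 higher and 606 of the 628 lower promoters. The same ratio had called these promoters, so this is no separate check of the calls. Without barcodes of over 20000 fragments the counts were 1002 and 660 promoters and 1350 and 1126 bodies. With comparison barcodes weighted to the depth mix of the members, bodies leaned the other way, with 1157 higher and 2434 lower and a median ratio of 0.959, while the promoter median was 1.07, so that single ratios are best read against these medians.

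**Figure D2:**
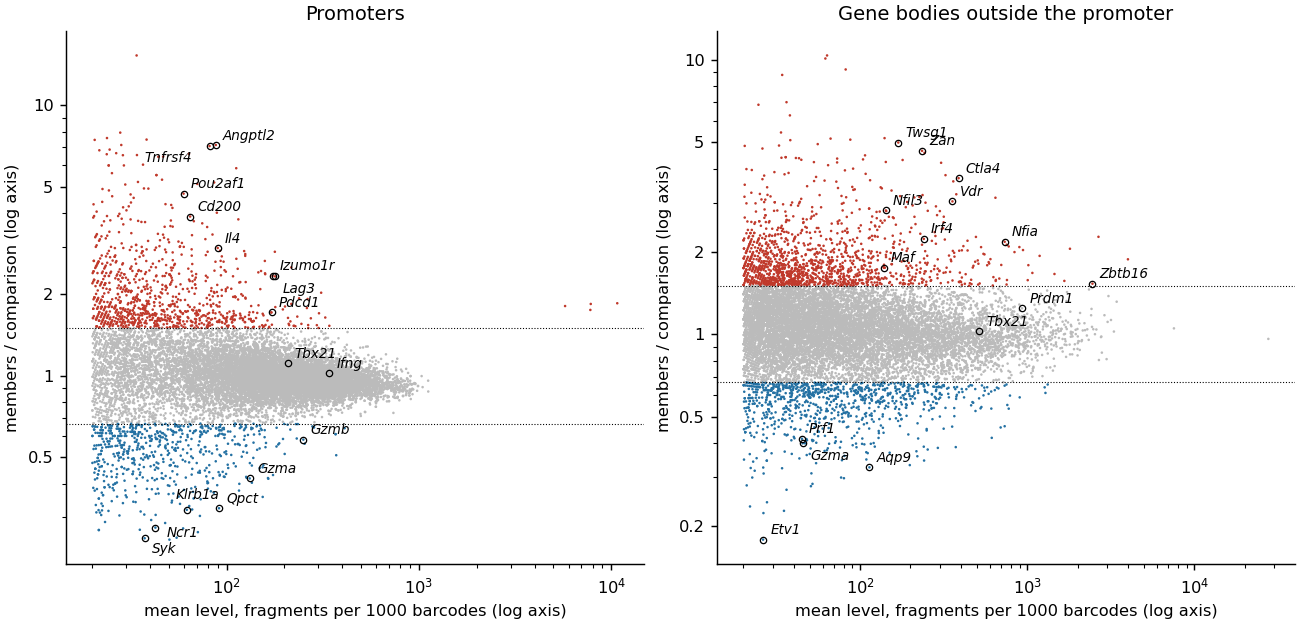
Ratio of the member to the comparison level (log axis) against the mean level of both sets in fragments per 1000 barcodes (log axis), for each tested promoter (left) and gene body (right) of ending 2. Red points are at least 1.5-fold higher and blue points at least 1.5-fold lower in members; named genes are circled, with Tnfrsf4 at 7.07 and Gzma at 0.418 among promoters and Ctla4 at 3.70 among bodies.

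Genes of inhibitory receptors were more open in members at several loci, with exceptions. Of 13 tested promoters of inhibitory receptors 6 were higher and 2 lower (median 1.24, beside 0.978 for all promoters), and of 15 bodies 6 were higher and 2 lower (median 1.21, beside 1.05). The shares over all tested genes, to set beside this list and those below, were 5.88% higher and 3.87% lower promoters, and 11.6% and 7.15% of bodies. Lag3 (chr6:124904361-124911705), which encodes a receptor for MHC class II, had a promoter level of 250 in members and 107 in comparison barcodes, a ratio of 2.33 (1.95 to 2.80). The promoter of Pdcd1, the PD-1 gene, had levels of 216 and 126, a ratio of 1.72 (1.45 to 2.04), while its body stayed within 1.5-fold (197 and 162). Ctla4 (chr1:60887000-60915832), whose product competes with CD28 for its ligands, had a body level of 612 and 165, a ratio of 3.70 (3.23 to 4.27). In the annotation the Ctla4 gene model starts upstream of the start of its main transcript, which therefore counts to the body, and its promoter was too low to be tested (12.1 and 0.697). Fragments anywhere in Ctla4 or in the 2 kb before its start were found in 41.7% of members and 13.1% of comparison barcodes, all thinned to 5000 fragments. Cd200, the ligand of an inhibitory receptor, had promoter levels of 103 and 26.5, a ratio of 3.88 (2.75 to 5.62), and Btla, which binds HVEM, had 137 and 64.8, a ratio of 2.12 (1.68 to 2.70). Tigit, a receptor for CD155, was open to a like degree in both sets, at 405 and 348, a ratio of 1.16 (1.04 to 1.30). Lower were Cd244a, which encodes the SLAM-family receptor 2B4 (63.5 and 169, ratio 0.377), and Klrg1, a lectin-like receptor of terminal effector cells (19.6 and 45.3, ratio 0.434).

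Of the costimulatory receptors, Tnfrsf4 stood alone among the promoters. Tnfrsf4 (chr4:156013843-156016612), which encodes OX40, had a promoter level of 143 in members and 20.2 in comparison barcodes, a ratio of 7.07 (4.84 to 10.7), the third highest of all tested protein-coding promoters. The other 9 tested costimulatory promoters stayed within 1.5-fold, Icos among them at 165 and 121, and the list had a median of 1.17. At the bodies 2 of 10 were higher, Cd40lg and Cd6, beside 11.6% of all bodies, with a median of 1.32. Both are among the calls given below that did not hold under every alternative. Icos, the costimulator of helper cells, had a body level of 331 and 235 (ratio 1.41). Izumo1r (chr9:14885814-14903949), the folate receptor 4 gene, had promoter levels of 243 and 104, a ratio of 2.34 (1.95 to 2.82), and Itga4, the α4 integrin gene, 357 and 232, a ratio of 1.54 (1.35 to 1.75).

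Transcription factor genes linked to Tr1 cells differed mainly in their bodies. Of 17 tested bodies 9 were higher and none was lower, with a median of 1.56 beside 1.05 for all bodies, and of 15 promoters 3 were higher and 1 lower (median 1.12). Vdr (chr15:97854425-97910630), the vitamin D receptor gene, had a body level of 537 in members and 176 in comparison barcodes, a ratio of 3.05 (2.66 to 3.5), and a promoter level of 41.4 and 20.2. Nfil3 (chr13:52967209-52981073), which encodes a bZIP factor, had a body level of 211 and 74.6, a ratio of 2.82 (2.29 to 3.51), whereas its promoter was equally open (239 and 249, ratio 0.961). Irf4, whose product acts with BATF downstream of the T cell receptor, had a promoter level of 381 and 224 and a body level of 332 and 149, a body ratio of 2.22 (1.91 to 2.60). Nfia (chr4:97772734-98118874) had a body level of 1003 and 462, Tox 1263 and 624, Ikzf2, the Helios gene, 1117 and 561, and Maf, the c-Maf gene, 176 and 101, with ratios of 2.17, 2.03, 1.99 and 1.75. Each of these 4 bodies was called while the promoters of Nfia (1.25) and Maf (1.45) were not. Prdm1, the Blimp-1 gene, stayed within 1.5-fold at the promoter of its outermost annotated start (196 and 200) and at its body (ratio 1.24, 1.16 to 1.33). As for Ctla4, a transcript that starts inside this long gene model would count to the body. Tox2 was higher at its promoter (214 and 87.8, ratio 2.44), and Eomes, a T-box factor gene, lower (41.8 and 67.6, ratio 0.618).

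The factors that define iNKT lineages were mostly alike in both sets. None of 16 tested promoters was higher and 2 were lower, with a median of 0.979, and 2 of 14 bodies were higher, Zbtb16 among them (median 1.01). Over all tested genes 5.88% of promoters were higher and 3.87% lower, and 11.6% of bodies were higher. Few calls in a list this short are near those shares. Zbtb16 had a promoter level of 204 and 185, and a body level of 2969 and 1944, a ratio of 1.53 (1.46 to 1.60). Tbx21, the T-bet gene of NKT1 cells, had a body level of 523 and 509, a ratio of 1.03 (0.937 to 1.13). Lower promoters were those of Zfp683, the Hobit gene of resident lymphocytes (41.4 and 86.4, ratio 0.479), and Runx3, a factor of cytotoxic cells (224 and 346, ratio 0.646).

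Follicular helper genes had the highest list median among promoters, 1.67 over 9 tested, of which 5 were higher and none lower; 3 of 8 bodies were higher, with a median of 1.15. Pou2af1, which encodes the OCA-B coactivator, had a promoter level of 98.6 in members and 20.9 in comparison barcodes, a ratio of 4.72 (3.22 to 7.15), and its body had the highest ratio of all tested protein-coding bodies (56.8 and 10.5, ratio 5.44, 3.18 to 9.98). Cebpa, a bZIP factor gene, had 83.6 and 19.5 at its promoter (ratio 4.28, 2.88 to 6.61), Il6ra, the interleukin 6 receptor gene, 94.9 and 41.8 (ratio 2.27), and Slamf6, a SLAM-family receptor gene, 113 and 53.7 (ratio 2.11).

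Cytokine genes other than Il10 and Il21 were mostly within 1.5-fold. Of 14 tested promoters 2 were higher and 1 lower (median 1.07), and 1 of 7 bodies, Tgfb3, was higher (median 1.32). The Il4 promoter (chr11:53602982-53618669) had levels of 135 and 45.3, a ratio of 2.97 (2.27 to 3.94). Ifng, the interferon γ gene, was open alike, at 346 and 339, a ratio of 1.02 (0.911 to 1.14). The promoter of Csf2, the GM-CSF gene, was lower (81.9 and 146, ratio 0.560), and that of Ebi3, which encodes a chain of interleukins 27 and 35, was called higher on few fragments (27.6 and 15.3). Chemokine genes went the other way: 4 of 6 tested promoters and both tested bodies were lower, with a promoter median of 0.517. Xcl1 had promoter levels of 93.2 and 204 (ratio 0.456), Ccl3 57.7 and 136 (0.424), Ccl4 99.0 and 212 (0.468), and Ccl5 99.9 and 176 (0.566). The 11 chemokine promoters summed to 499 in members and 865 in comparison barcodes, beside 535 and 541 in those of ending 1.

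Among promoters, genes of natural killer (NK) receptors were the list with the largest share of calls. Of 12 tested promoters 11 were lower and none higher, with a median of 0.473, and of 7 bodies 5 were lower and none higher (0.608). Ncr1 (chr7:4337724-4345164), the NKp46 gene, had a promoter level of 18.4 in members and 66.9 in comparison barcodes, a ratio of 0.275 (0.188 to 0.397). Klre1 had 51.8 and 111 (ratio 0.468), Klrk1, the NKG2D gene, 29.3 and 55.7 (0.525), and Klrd1, the CD94 gene, 36.4 and 60.6 (0.600). Cd7 had 85.2 and 179 (0.476). The Klra and Klrb1 genes are near-identical copies in a cluster, so reads of one can be placed on another and single values of Klra1, Klra5, Klra7, Klra9, Klrb1c and Klrb1f, with ratios from 0.269 to 0.578, are uncertain.

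Some genes of cytotoxic effectors were lower. Of 11 tested promoters 5 were lower, 6 were within 1.5-fold and none was higher (median 0.708), and of 11 bodies 7 were lower and 1, Gzmf, was higher (median 0.617). The 14 promoters of the list summed to 1804 in members and 2539 in comparison barcodes, beside 1902 and 1940 in those of ending 1. Gzma (chr13:113093825-113100981), the granzyme A gene, had a promoter level of 77.7 and 186, a ratio of 0.418 (0.345 to 0.506), and a body ratio of 0.400 (0.285 to 0.557). In ending 1 its promoter held 40 in members and 35.9 in comparison barcodes. Gzmb, the granzyme B gene, had a promoter level of 184 and 317 (ratio 0.581), Prf1, the perforin gene, 145 and 248 (0.585), and Gzmk 27.2 and 43.9 (0.619, 0.431 to 0.889). With comparison barcodes weighted to the depth mix of the members, of these 5 lower promoters only that of Gzma kept its call. The Gzmk body was alike in both sets (326 and 287), and a transcript that starts inside this long gene model would count to it. Of the cytokine receptors, the promoters of Il12rb2 (135 and 240, ratio 0.563) and Il18rap were lower, the other 15 of 17 were within 1.5-fold, no body of 19 was called, and the list medians were 0.970 and 0.843.

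Several lists held few or no calls. Of all tested promoters 5.88% were higher and 3.87% lower, and of all bodies 11.6% and 7.15%. In lists this short, few or no calls are near those shares and are no result about the lists. No promoter of 23 activation-induced nuclear factors and no promoter of 17 TCR signalling genes was called (medians 1.03 and 1.01), and among their bodies Rel, Cd3e and Rgs16 were higher (medians 1.03 and 1.02). Of the naive-like genes, Ccr7 and S1pr1 promoters were higher and Actn1 lower, among 11 tested (0.983), and the Actn1 body was lower among 10 (1.09). Chemokine receptors and integrins had 3 higher promoters among 15 (Ccr8, Ccr9 and Itga4; median 1.08) and 2 higher bodies and 1 lower among 16 (Ccr4, Itga4 and Ccr2; median 1.12). None of 12 promoters or 9 bodies of nuclear genes that every cell uses was called (medians 0.920 and 0.971). The 44 genes used here from the study's longer list of relevant iNKT genes had 11 higher and 2 lower promoters among 35 tested (median 1.25) and 13 higher bodies among 36 (median 1.23).

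**Figure D3:**
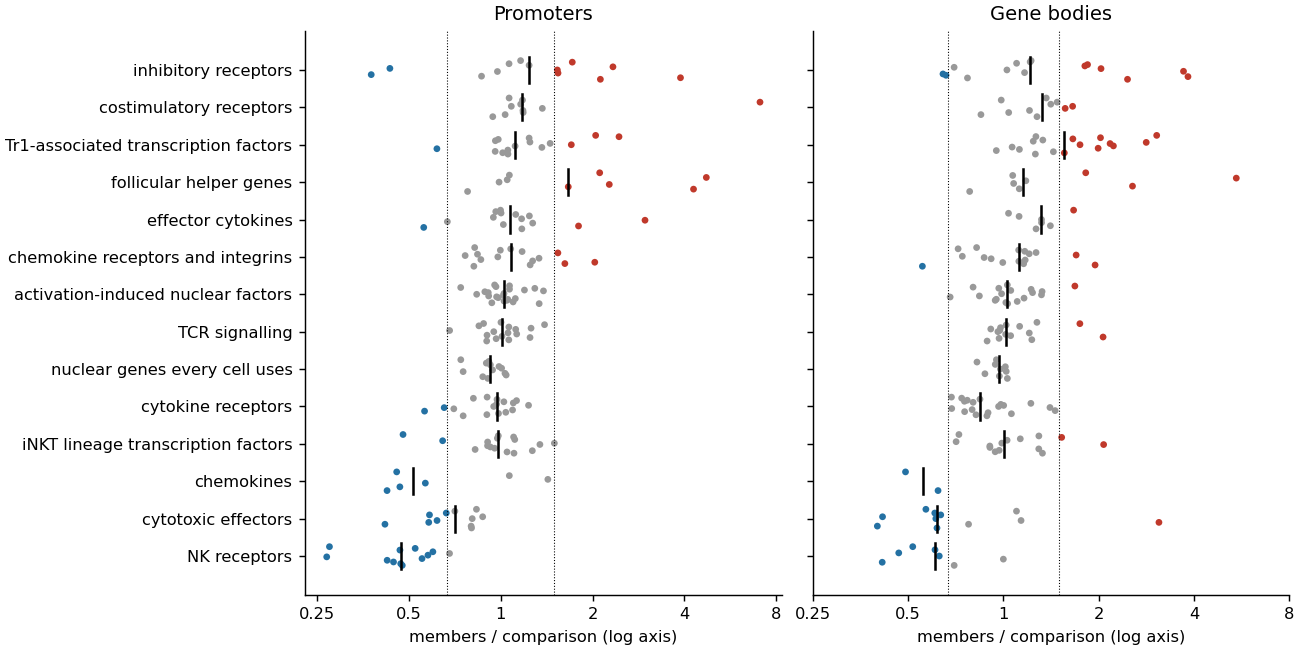
Ratio of the member to the comparison level (log axis) for each tested gene of 14 lists, at promoters (left) and gene bodies (right); each point is a gene, black bars are list medians and dotted lines are the limits of 1.5-fold. The NK receptor promoters sit left of 1 with a median of 0.473, and the bodies of Tr1-associated factors sit furthest right with a median of 1.56.

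Some of these calls rest on little. With another random draw of the thinned fragments, the ratios of the Ccr9 promoter (1.09), Actn1 promoter (0.902), Ccl5 promoter (0.670), Fam43a promoter (1.47), Havcr2 promoter (1.39), Il18rap promoter (0.687), Ccr2 body (0.809), Cd40lg body (1.34), Gzmm body (0.746), Klrb1f body (0.728), Lair1 body (1.32) and Serpinb9 body (0.741) lay within 1.5-fold. With the comparison barcodes weighted to the depth mix of the members, so did those of the Gzmk promoter (0.905), Gzmb promoter (0.679), Prf1 promoter (0.704), Runx3 promoter (0.770), Eomes promoter (0.758), Il12rb2 promoter (0.669), Serpinb6b promoter (0.758), S1pr1 promoter (1.46), Klre1 body (0.724), Klrb1f body (0.703), Batf body (1.45), Cd6 body (1.47), Cd79a body (1.01), Rel body (1.43), Runx2 body (1.27) and Tgfb3 body (1.5). Among barcodes of 5000 to 10000 fragments alone, the Lag3 body (1.21), Itga4 promoter (1.49), Csf2 promoter (0.712) and Fasl body (0.775) did so, and with promoters of 1000 bases on either side the Pdcd1 promoter (1.38) and Irf4 promoter (1.45). Without barcodes of over 20000 fragments, only the promoters of Ebi3 (Ebi3 promoter, 1.45), Havcr2 (Havcr2 promoter, 1.49) and Serpinb6b (Serpinb6b promoter, 0.672) and the Serpinb6b body (0.689), among the genes named by the rule, did.

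Outside the lists, the 12 highest protein-coding promoters were led by Igsf9b, an immunoglobulin-superfamily gene (67.7 and 9.06, ratio 7.47, 4.25 to 14.3), and Angptl2 (chr2:33216069-33247717), which encodes a secreted angiopoietin-like protein (154 and 21.6, ratio 7.14, 4.94 to 10.7). Tnfrsf4 came next, and among the rest were Cd109, Klk1b9, Coch, Chst3, Mpp4, Slc25a34, Rorb and Mtss1, with ratios of 6.82 down to 4.93. Fragments at Angptl2 were present in 18.2% of members and 4.25% of comparison barcodes. The highest bodies after Pou2af1 were those of Ppp4r4 (146 and 28.6, ratio 5.12), Klk1b27, Twsg1, which encodes a BMP-binding protein (282 and 56.4, ratio 5.00, 3.96 to 6.37), Prph2, Tmem182, Ier5l, Zan (387 and 82.9, ratio 4.66, 3.85 to 5.69), Kcnk10, Naa10, Klk1b9 and Anxa3 (ratio 4.32). None of these rested on 1 nucleus: no member gave over 5 fragments to any of them. Klk1b9 and Klk1b27 belong to a family of near-identical kallikrein genes and are uncertain.

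The 8 lowest protein-coding promoters were those of Syk (chr13:52583173-52648792), a tyrosine kinase of B cells, NK cells and innate-like lymphocytes (15.0 and 59.9, ratio 0.251, 0.165 to 0.374), Klrb1c, Ncr1, Clnk, an adaptor of immunoreceptor signalling (18.4 and 62.7, ratio 0.293), Slc39a2, Klrb1a (30.1 and 94.1, ratio 0.320), Qpct, a glutaminyl cyclase gene (44.7 and 138, ratio 0.324), and Odaph (0.337). Syk fragments were found in 5.68% of members and 16.2% of comparison barcodes. The lowest bodies included Rcn1 (22.1 and 79.4, ratio 0.279), Atp1b1 (35.5 and 118, ratio 0.300) and Aqp9, a glycerol channel gene (56.0 and 171, ratio 0.327, 0.263 to 0.405). The other 5 lowest bodies were carried by few nuclei: 1 comparison barcode gave 33 of the 64 fragments of Etv1, 1 gave 38 of the 51 of Mroh2b, 1 gave 27 of the 116 of Ntrk2, 1 gave 13 of the 50 of Hs3st2 and 1 gave 14 of the 58 of Dok5.

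Some of the genes called above are described by the number of fragments a barcode had at Il10 and Il21, the number the rule used. Since the genes were called between the lowest and the highest of these classes, only the levels at 2 or 3 fragments, and the order within each set, are free of that choice. The Ctla4 body had levels of 122, 207, 299, 457, 591 and 737 in barcodes with 0, 1, 2 or 3, 4 or 5, 6 or 7, and 8 or more fragments at the loci. The Tnfrsf4 promoter had 11.4, 28.7, 43.5, 84.4, 142 and 187, and the Vdr body 122, 229, 238, 401, 532 and 642. The Gzma promoter went from 185 and 187 through 163, 126 and 86.8 to 37.4, and the Klrb1a promoter from 99.4 and 88.9 through 83.7, 51.6 and 37.7 to 10.3. For these 5 features, members with 8 or more fragments stood furthest from the comparison barcodes. The Tbx21 body held 511, 508, 512, 533, 572 and 492 and the Ifng promoter 331, 346, 332, 330, 347 and 356, without an order. The 6 classes held 704, 731, 1218, 794, 530 and 1069 barcodes, and their median depth before thinning moved with them, at 8396.5, 9410, 10680, 11651, 13198.5 and 17457 fragments; its part in the order was not tested. At the threshold, barcodes with exactly 3 and exactly 4 fragments had Ctla4 body levels of 346 and 444 and Tnfrsf4 promoter levels of 51.8 and 98.2.

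**Figure D4:**
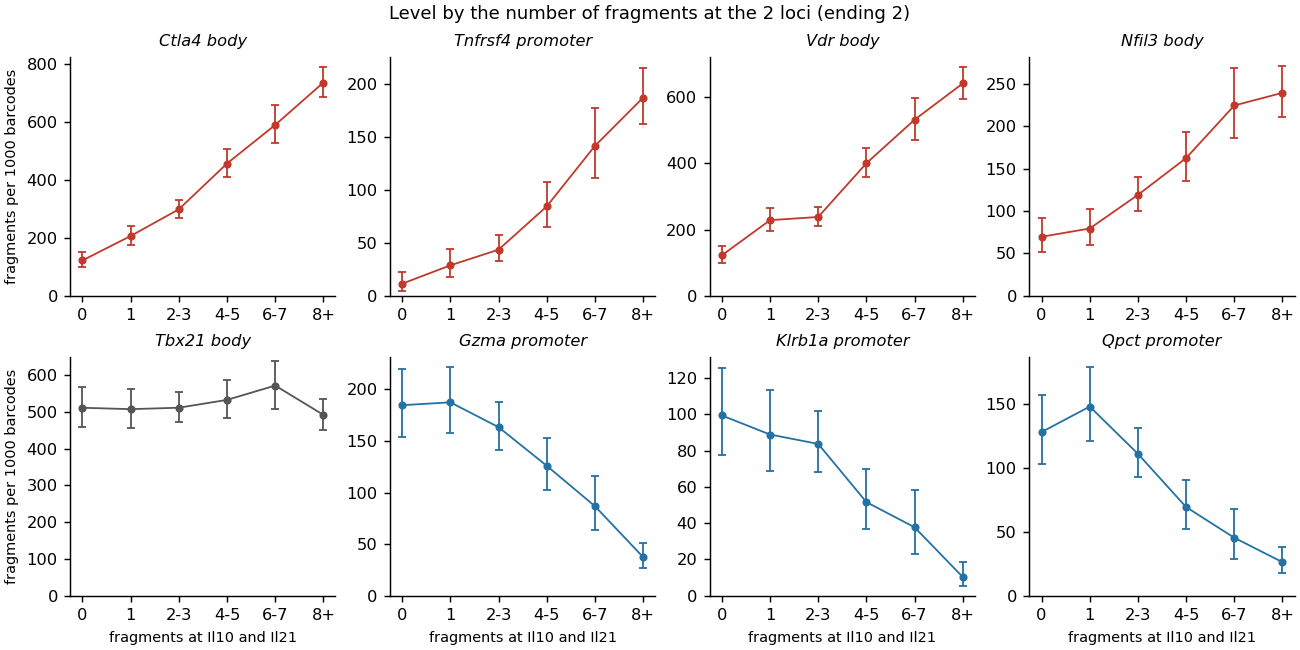
Level in fragments per 1000 barcodes of 8 features in 6 classes of ending 2 barcodes by their number of fragments at Il10 and Il21; bars are exact 95% intervals that cover counting error only. The Ctla4 body goes from 122 to 737 and the Gzma promoter from 185 to 37.4, while the Tbx21 body stays between 492 and 572.

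Members were also split by which locus gave most of their fragments, for 4 features. The 1169 members led by Il10, the 507 led by Il21 and the other 717 had Ctla4 body levels of 592, 604 and 650, Vdr body levels of 532, 538 and 545, and Tnfrsf4 promoter levels of 145, 136 and 144. The Gzma promoter had 111 in members led by Il10, 47.3 in those led by Il21 and 44.6 in the others. Choosing by one locus moved more than these features show: with the Il10 window alone, 53 values of named genes moved beyond their counting error, the Gzma body (0.702) among them, and 1093 bodies were higher, while with the Il21 window alone 12 moved and 1433 bodies were higher.

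Over fixed 500-base sites, 60373 had a mean level of at least 20; 5189 (8.59%) were higher in members and 6647 (11%) were lower, with a median ratio of 0.959. With comparison barcodes weighted to the depth mix of the members, 7681 were higher and 6309 lower. The sites within 200 kb of either window were left out. Adjoining sites merged into 3982 higher and 5046 lower regions of up to 6500 and 3500 bases. Called sites more often lay away from the start sites of protein-coding genes: 24.9% of the higher and 14.3% of the lower sites were within 2 kb of one, beside 48.4% of all, and 56.9% and 65.4% were over 10 kb away, beside 36.1%. Called sites also had lower levels, with medians of 31.3 and 33.2 beside 44.9 for all. A low site passes 1.5-fold by counting error more easily, and its part here was not tested. Several of the highest sites, named here after their values were seen, lay in or near genes named above. A site in the Ikzf2 body, 142 kb downstream of its start, had levels of 71.5 and 3.48 (ratio 20.5), a site 40.7 kb upstream of Icos 76.5 and 5.57 (13.7), a site 35 kb upstream of Maf 82.7 and 6.27 (13.2), and a site in the Runx2 body 131 and 11.8 (11.1). Low sites included one 120 kb upstream of Eomes, with 10.9 and 60.6 (0.179), and one in the Itga1 body, with 6.27 and 42.5 (0.147).

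AP-1 and NFAT letters were more frequent in the higher sites than in the tested sites at large. The AP-1 motif (TGANTCA) stood in 26.7% of the higher, 15.0% of the lower and 13.7% of all tested sites, and over 2 kb from any protein-coding start site in 30.3%, 15.6% and 18.3%. NFAT (TGGAAA) stood in 43.7%, 31.8% and 33.3%. A composite NFAT and AP-1 motif stood in 0.501%, 0.0150% and 0.111%, that is in 26 higher sites and 1 lower site, a BATF and IRF4 composite in 1.02%, 0.316% and 0.285%, a κB motif in 1.79%, 0.421% and 0.817%, and the MAF motif (TGCTGAC) in 11.0%, 8.17% and 7.67%. In the lower sites the share was larger for Runx (TGTGGTT; 14.4%, 23.8% and 12.7%), ETS (AGGAAGTG; 6.94%, 16.3% and 8.37%) and T-box letters (AGGTGTGA; 2.76%, 4.36% and 2.59%). Over 2 kb from any protein-coding start site the shares were 16.2%, 25.3% and 17.3% for Runx. They were 7.54%, 17.5% and 11.4% for ETS, and 3.16%, 4.71% and 3.42% for T-box letters. Among other motifs searched on both strands, TCF7 and LEF1 (CTTTGAA) gave 11.3%, 10.7% and 9.11%, KLF (GGGTGTGGC) 1.97%, 1.55% and 1.58%, NR4A (AAAGGTCA) 2.79%, 2.99% and 2.29%, IRF 8.31%, 7.28% and 7.13%, E-box (CAGCTG) 25.3%, 27.7% and 25%, CTCF 2.41%, 1.22% and 2.77%, and EGR (GCGTGGGCG) 0.463%, 0.226% and 0.740%. The composites overlap with the single motifs, and a match is a string of letters, not a bound site.

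Sites of 6 genes are shown to set higher beside lower chromatin. Of these, 4 are from genes more open in members than in comparison barcodes (Tnfrsf4, Ctla4, Vdr and Nfia). The other 2 are from genes less open in members than in comparison barcodes (Gzma and Ncr1). For each gene the called site in or near it whose interval lay furthest from 1 was taken, so these ratios are extremes by choice. The 4 higher sites held 10, 13, 4 and 10 comparison fragments and passed the floor through the members. Each sequence is the 200 bases with the most member fragment ends in its 500-base site, RefSeq GRCm38.p6, + strand, with the same motifs in capitals.
Tnfrsf4 upstream site, chr4:156008501-156008700: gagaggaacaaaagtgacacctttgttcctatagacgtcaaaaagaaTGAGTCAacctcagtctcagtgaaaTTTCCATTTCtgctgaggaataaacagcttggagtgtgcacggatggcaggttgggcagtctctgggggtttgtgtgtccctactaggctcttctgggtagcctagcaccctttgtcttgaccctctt
Ctla4 site, chr1:60913299-60913498: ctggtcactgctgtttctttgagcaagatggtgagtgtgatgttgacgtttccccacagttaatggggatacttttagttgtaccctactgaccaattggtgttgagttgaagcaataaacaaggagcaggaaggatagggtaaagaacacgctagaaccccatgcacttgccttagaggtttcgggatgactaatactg
Vdr site, chr15:97892633-97892832: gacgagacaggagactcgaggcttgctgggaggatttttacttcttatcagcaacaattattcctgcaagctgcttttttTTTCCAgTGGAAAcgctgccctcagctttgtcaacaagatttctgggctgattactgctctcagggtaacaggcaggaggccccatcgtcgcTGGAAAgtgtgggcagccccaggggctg
Nfia site, chr4:97885646-97885845: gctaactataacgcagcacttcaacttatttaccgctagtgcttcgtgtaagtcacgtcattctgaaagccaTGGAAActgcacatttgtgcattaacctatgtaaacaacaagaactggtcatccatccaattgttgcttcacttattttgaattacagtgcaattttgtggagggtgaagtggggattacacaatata
Gzma site, chr13:113090583-113090782: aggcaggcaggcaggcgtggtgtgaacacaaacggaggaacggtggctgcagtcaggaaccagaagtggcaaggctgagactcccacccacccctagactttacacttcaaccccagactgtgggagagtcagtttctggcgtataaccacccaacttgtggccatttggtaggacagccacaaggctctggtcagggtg
Ncr1 site, chr7:4337551-4337750: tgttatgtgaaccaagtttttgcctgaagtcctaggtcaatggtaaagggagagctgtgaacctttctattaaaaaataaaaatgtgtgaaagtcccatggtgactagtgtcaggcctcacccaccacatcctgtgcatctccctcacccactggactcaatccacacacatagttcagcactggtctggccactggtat
The Tnfrsf4 site, at -5.09 kb from the start, had levels of 69.4 and 6.97 (ratio 9.95, 5.28 to 21.1), and held 1 AP-1 match and an NFAT match that overlaps an IRF match. The Vdr site, 17.9 kb into the gene, had 60.2 and 2.79 (ratio 21.6, 8.25 to 80.3) and held 3 NFAT matches, of which 2 are 1 base apart. The Nfia site, 113 kb into the gene, had 68.5 and 6.97 (ratio 9.83) and held 1 NFAT match, and the Ctla4 site, 26.3 kb from the annotated start, had 66.4 and 9.06 (ratio 7.33) and none. The Gzma site, 10.2 kb downstream of the start, had 25.1 and 78.0 (ratio 0.321) and the Ncr1 site, at the start, 12.5 and 57.1 (ratio 0.219), without a match in these windows.

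The called regions could be set beside DNA methylation of the whole sorted populations, measured by bisulfite sequencing and deposited as 1 value per group, of unknown depth. By the study's methods this DNA came from several sorted samples, older mice than those of the nuclei, and females for the untreated group, so age and, in part, sex differ from the male mice of the nuclei. Of the regions that the authors listed as differing between the groups, the 2869 on chromosomes 1 to 19 and X were used, 1978 with less and 891 with more methylation in treated than in untreated cells. Of the higher sites, 554 (10.7%) overlapped a region less methylated in treated cells, beside 0.316% of the lower and 1.53% of all tested sites. For regions more methylated in treated cells the shares were 0.0578%, 2.95% and 0.467%. Of the higher promoters 6.18% held a less methylated region, beside 0.318% of the lower and 1.55% of all, and of the bodies 17.5%, 2.09% and 7.60%. A region more methylated in treated cells lay in 0.419% of the higher, 5.73% of the lower and 0.826% of all promoters, and in 2.32%, 6.50% and 4.72% of bodies. Read from the regions, the 583 less methylated ones with enough fragments had a median ratio of members to comparison barcodes of 2.21, with 65.4% higher and 1.89% lower, and the 181 more methylated ones a median of 0.522, with 1.10% higher and 75.1% lower. These were 583 of 1959 and 181 of 891 regions away from the loci. The floor was on the mean of both sets, so a region low in 1 set passed only where the other was high, and these shares are inflated by it. Without the floor, median levels were 13.4 in members and 4.18 in comparison barcodes for the less methylated regions, and 5.85 and 9.76 for the more methylated. In ending 1 the median ratios were 1.12 over 207 and 0.939 over 331 regions.

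Regions with less methylation in treated cells lay in the genes described above. In the Il10 window there were 8 and in the Il21 window 9, and each was less methylated in treated cells. The region 25.8 kb upstream of Il10 went from 52.0% in untreated to 16% in treated cells, that 16.3 kb upstream from 89.7% to 38.5%, and that 0.650 kb into Il21 from 92.0% to 25.3%. In Tnfrsf4 a region 0.377 kb from the start went from 82.9% to 39.7%, and had levels of 96.5 in members and 11.8 in comparison barcodes. In Nfil3 a region 4.33 kb from the start went from 83.8% to 22.8% (levels 109 and 17.4), and in Runx2 one at 48.2 kb from 89.5% to 25.9% (139 and 11.8). This Runx2 region had the highest ratio in its gene, 11.7. The other less methylated regions of Runx2 had ratios from 0.959 to 2.70. One region of Prdm1, at 86.1 kb, went from 78.4% to 32.9% (57.7 and 6.27, ratio 9.19). It had the highest ratio of the Prdm1 regions, and the others had ratios from 1.13 to 1.68. The promoter and body of Prdm1 as a whole were within 1.5-fold. The 3 regions of Tbx21 had ratios from 0.969 to 1.04. A less methylated region was not always more open in members. In Ccl5 one went from 88.4% to 71.9% and had levels of 10.0 and 18.8. In Gzmk one at 44.9 kb went from 74.7% to 32.2% (11.7 and 19.5, ratio 0.600, 0.342 to 1.05), while another had a ratio of 1.42. With more methylation in treated cells, a region 1.04 kb from the start of Zfp683 went from 43.8% to 74.5% and had levels of 11.7 and 18.8, while another at 5.66 kb went from 61.5% to 43.8% (61.4 and 63.4). A region 7.78 kb from the start of Ccr7, whose promoter was higher in members, gained methylation, from 11.9% to 58.2% (11.3 and 16.7).

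The same rule found 550 members (10.2%, 9.37 to 11.0) among 5410 ending 1 barcodes. At 5000 to 10000 fragments it found 70 of 2486 (2.82%), beside 28.7% of ending 2. Of the ending 1 members 46.9% had over 20000 fragments, and their median was 19025. The levels that follow are described without a test, since these fragments chose both sets of members. Because members were chosen before thinning, deeper members can have lower thinned levels, and the part of depth was not tested. The Il10 window of ending 1 members had a level of 851 and their Il21 window 675, beside 1716 and 1224 in ending 2 members. The Il10 stretch 25.75 kb upstream held 216, near the 254 of ending 2 members, whereas the Il10 promoter held 76.4 and the Il21 promoter 40, beside 272 and 192.

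Most of the genes called in ending 2 were not called in ending 1. Of the 661 promoters higher in ending 2 and tested in both, 66 (9.98%) were higher in ending 1, beside 1.33% of all promoters tested in both, and 25 (3.78%) were lower, beside 1.35%. Their median ratio in ending 1 was 1.07, beside 0.938 for all. Of 1232 higher bodies 238 (19.3%) were higher in ending 1, beside 9.68% of all, and of 819 lower bodies 9 (1.10%) were lower, beside 1.18%. Of 571 lower promoters 35 (6.13%) were lower in ending 1, beside 1.35%, and 18 (3.15%) were higher, beside 1.33%. Of 2808 higher sites 262 (9.33%) were higher, beside 3.11%, and 168 (5.98%) were lower, beside 5.59%, while of 5808 lower sites 456 (7.85%) were lower, beside 5.59%. Without barcodes of over 20000 fragments the shares of higher features that were higher in ending 1 were 16.4% of promoters beside 2.82%, 19.4% of bodies beside 9.26% and 19.8% of sites beside 7.94%. In the opposite direction, 6.76% of higher promoters were lower there, beside 3.12%, and 7.37% of lower promoters were higher, beside 2.82%. Of the lower sites 11.7% were lower, beside 8.41%, and 8.92% were higher, beside 7.94%. Among the genes above, the Ctla4 body was higher in ending 1 too (145 and 90.5, ratio 1.61), as were the bodies of Itga4 (1.51), Blk (2.26), Twsg1 (1.95), Rgs16 (1.88) and Ppp4r4 (1.67) and the Ccr9 promoter (1.95). The Nfil3 body (1.56, 0.933 to 2.51), Havcr2 body (1.53, 0.914 to 2.45) and Vdr promoter (1.73, 0.967 to 2.94) were also past 1.5-fold, with intervals that include 1. Without barcodes of over 20000 fragments the Nfil3 body was at 1.30, the Havcr2 body at 1.79 and the Vdr promoter at 1.80, while the bodies of Irf4 (1.67) and Nfia (1.53) were past 1.5-fold there, as was the Tigit body (1.82), which was not called in ending 2. Lag3 (1.13) and Irf4 (1.06) promoters and the Vdr body (0.903) stayed within 1.5-fold there, and the Tnfrsf4 promoter was too low to be tested.

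The RNA of the genes was read from SmartSeq2 cells, 284 untreated and 282 treated, whose counts were summed per group and scaled to CPM. Il10 and Il21 RNA was listed at 0 in untreated cells and at 389 and 96.9 CPM in treated cells. Lag3 went from 0 to 738 CPM, Tnfrsf4 from 0 to 215, Angptl2 from 0 to 99.4, Vdr from 0 to 81.3, Izumo1r from 16.9 to 423 and Pdcd1 from 34.5 to 780. Over the 144 genes with a higher promoter and a mean of at least 5 CPM, the median log2 ratio of treated to untreated was 0.98, with a pseudocount of 1 CPM, and 49.3% were at least 2-fold higher in treated cells, beside a median of 0.02 and 18.8% over all 8163 genes. The 144 were among 944 matched genes with a higher promoter, and the 8163 among 16115. Most genes with a higher promoter thus had too little RNA to be read. The filter used the mean of both groups, so a gene near 0 in untreated cells passed only where it was high in treated cells. For the 544 genes, of 1459 matched, with a higher body the median was 0.55 and the share 36.8%, beside 0.04 and 20.1% over 6209 genes of 12615. Genes with a lower promoter also had a median above 0, at 0.41 over 118 genes, and 41.5% of them were at least 2-fold higher in treated cells. For the 286 genes with a lower body the share was 24.1%. Gzma went from 172 to 3665 CPM and Ncr1 from 193 to 690 CPM. In such sums, as in the methylation of whole populations, more cells of a kind and more RNA per cell cannot be told apart.

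Within the treated SmartSeq2 sample the cells could be split by their own Il10 and Il21 RNA, a comparison chosen after seeing the data. Of 272 treated cells with at least 100000 reads, 55 had a read of Il10 (40), Il21 (33) or both (18), and 217 had neither. All were thinned to 100000 reads, and the cells with Il10 or Il21 showed a median of 758 genes, the others 676. These are other cells than the nuclei and come from 1 sample, so the values below are shares of cells with a read, with exact 95% intervals for counting error only. By the limit of 3 counts, a share of 0 allows up to 5.45% among 55 cells and 1.38% among 217, and the upper ends of the exact intervals are 6.49% and 1.69%.

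Many of the receptor and factor genes that were more open in member nuclei, though not all, had RNA in more of the cells with Il10 or Il21. Lag3 was read in 65.5% (51.4 to 77.8) of these and in 13.4% of the others, Pdcd1 in 54.5% and 13.8%, Izumo1r in 49.1% and 11.5%, and Il4 in 34.5% and 4.61%. Maf was read in 67.3% and 14.3%, Ikzf2 in 32.7% and 7.37%, Tox in 18.2% and 2.30%, Vdr in 18.2% and 0.922%, and Nfil3 in 16.4% and 4.61%. Tnfrsf4 was read in 20% and 3.69%, Ctla4 in 16.4% and 2.30%, Angptl2 in 14.5% and 0.922%, Zan in 14.5% and 1.38%, and Twsg1 in 12.7% and 1.38%. Icos (49.1% and 9.22%), Tigit (40.0% and 10.1%) and Ifng (38.2% and 19.4%) were also read in a larger share of the cells with Il10 or Il21, although neither the promoter nor the body of any of the 3 was called. Ccr2, whose body was lower in member nuclei, was read in 25.5% and 11.5%. Tbx21 was read in like shares (21.8% and 24.9%). Irf4 (1.82% and 2.76%) and Nfia (0% and 0.461%) were hardly read at this depth in either set, so no difference was detectable for them. The same held for Havcr2 (0% and 0.922%), Tox2 (0% and 0.461%), Pou2af1 (0% and 0.461%) and Cebpa (0% and 1.84%). Further genes with a higher body had like or smaller shares in the cells with Il10 or Il21: Batf 16.4% and 16.6%, Cd40lg 10.9% and 14.7%, Runx2 1.82% and 3.23%, and Rel 1.82% and 6.45%.

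NK receptor, chemokine and cytotoxic genes had the opposite order. Klre1 was read in 0% of the cells with Il10 or Il21 and 45.2% of the others, Klrk1 in 5.45% and 51.6%, Ncr1 in 0% and 22.1%, Cd7 in 0% and 55.8%, and Cd244a in 0% and 19.8%. Gzma was read in 1.82% and 46.5%, Gzmb in 14.5% and 57.6%, Prf1 in 1.82% and 13.8%, Xcl1 in 0% and 31.8%, and Ccl5 in 18.2% and 75.6%. Per cell, 0.436 NK receptor genes of the list were read in the cells with Il10 or Il21 and 4.03 in the others. Cytotoxic genes gave 2.27 and 3.78, inhibitory receptor genes 2.29 and 1.19, Tr1-associated factor genes 2.64 and 1.05, and the nuclear genes that every cell uses 7.65 and 7.25. B cell markers gave 0.0364 and 0.00461 genes per cell.

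**Figure D5:**
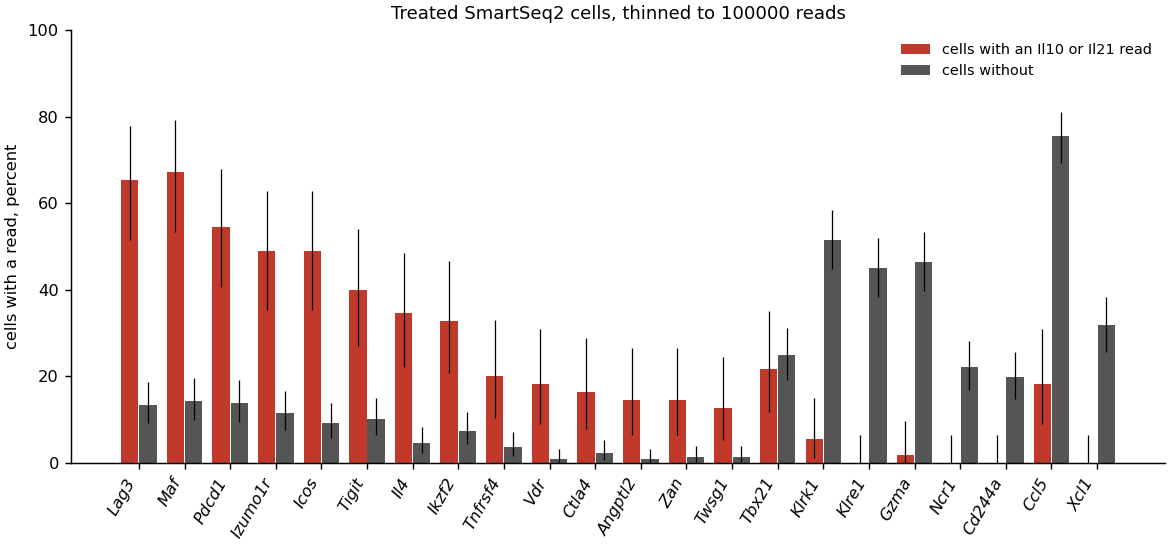
Share in percent of treated SmartSeq2 cells with a read of each gene after thinning to 100000 reads, in the 55 cells with an Il10 or Il21 read and the 217 without; bars start at 0 and lines are exact 95% binomial intervals for counting error. Lag3 is at 65.5% and 13.4%, Tbx21 at 21.8% and 24.9%, and Klre1 at 0% and 45.2%.

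Genes next to the 2 loci were not open as a block, although several of their promoters were higher. Within 500 kb, promoters of Fcmr, which encodes an IgM receptor (32.2 and 13.2, ratio 2.43), Fgf2 (61.4 and 24.4, ratio 2.52) and Spry1, an inhibitor of growth factor signalling (139 and 56.4, ratio 2.46), were higher. The antisense gene Fgf2os overlaps the Fgf2 promoter, so these fragments cannot be given to one of them. Promoters of the predicted genes Gm37954 (1.74), Gm42922 (2.43) and Gm43820 (2.54) were also higher, the last 2 near Spry1, and that of Gm37084 was lower (0.634). The other tested neighbours were within 1.5-fold. Near Il10 these were Gm29427, Yod1, Mapkapk2, Dyrk3, Eif2d, Rassf5, Ikbke and Gm29487. Near Il21 they were 4932438A13Rik, Il2, Cetn4, Gm43439, Bbs12, Nudt6, Spata5, Gm5148 and Gm42921. Higher promoters thus made up a larger share of the tested neighbours than the 5.88% of all tested promoters. Some neighbouring promoters overlap and share fragments. Mapkapk2, next to Il10, had a promoter ratio of 0.963 and Nudt6 0.886. The Il2 promoter, next to Il21, stayed within 1.5-fold at 36.4 and 54.4 (ratio 0.669).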

How the data were processed

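Nuclei were read from the deposited 10X single-nucleus ATAC-seq fragment file, whose rows give a fragment, its barcode and a count of read pairs; each row was counted once. The submitters' processing notes name Cell Ranger 6, STAR, Bowtie2, MACS2, DiffBind, Seurat, Signac and GRCm38.p6, and the study's methods name Cell Ranger ARC with BWA-MEM alignment and removal of duplicates for these nuclei. Counts per cell of the SmartSeq2 tables were deposited as raw read counts by the authors (55401 rows, 53542 IDs matched to GENCODE M21). Methylation values were deposited as fractions per position and group; the authors had mapped bisulfite reads to mm10 with BSMAP and called regions with metilene, and their columns of mean differences and q-values were not used. ChIP-seq and bulk ATAC-seq tables and the 10X RNA tables were not analysed here.

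Barcodes with at least 5000 fragments were assigned by their fragments at the 2 loci and then thinned to 5000 fragments each. Levels were taken at promoters (2 kb on either side of a GENCODE M21 start site), gene bodies of at least 500 bases outside the promoter, and 500-base tiles of chromosomes 1 to 19 and X, leaving out 200 kb around the windows. The start site was the outermost start of the gene model. In long models, such as those of Ctla4, Prdm1, Gzmk and Ccr9, a transcript that starts inside would count to the body. Features with a mean level of at least 20 per 1000 barcodes were tested against a limit of 1.5-fold. With 1 library no p-value was computed; intervals of ratios and shares are exact at the 95 percent level and cover counting error between these barcodes only. A share of 0 is given with the limit that 3 counts allow. The steps were tested on simulated data. Genes were named by rule: the 12 highest and 8 lowest protein-coding ratios for promoters and for bodies, called members of the gene lists, 20 fixed genes, and genes within 500 kb of a window; others are said to be chosen after their values were seen. Values of some genes that the rule names are not reported here. The members, lists and genes were chosen with earlier results of these data known. The lists were inhibitory receptors, costimulatory receptors, Tr1-associated and iNKT lineage transcription factors, follicular helper genes, effector cytokines, chemokines, cytotoxic effectors, naive-like genes, activation-induced nuclear factors, NK receptors, chemokine receptors and integrins, cytokine receptors, TCR signalling genes, iNKT genes of the study, nuclear genes that every cell uses and markers of T, B and other liver cells. The alternatives tried were other limits for members and comparison barcodes, depth ranges, thinning, weighting, counting, scaling, filters and promoter widths. Python 3.11.15 with numpy 2.4.6, scipy 1.17.1, pandas 2.3.3, pyarrow 21.0.0 and matplotlib 3.10.9 was used.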

Additional observations from a re-analysis of the deposited data

Results flagged for a closer look

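At 2 promoters named above, the members were past 1.5-fold in both barcode endings but in opposite directions, and the difference between the endings was not tested. The Klrg1 promoter had a ratio of 2.83 in ending 1 and 0.434 in ending 2. The S1pr1 promoter, whose gene encodes the receptor that guides exit from tissues, had a ratio of 0.606 in ending 1 and 1.62 in ending 2. Other named promoters, such as Gzma (1.11 in ending 1 and 0.418 in ending 2) and Ccr7 (0.695 and 1.94), lay on opposite sides of 1 without passing 1.5-fold in ending 1. Without barcodes of over 20000 fragments, the ending 1 ratios of the Ccr7 promoter (0.416), Eomes promoter (1.65), Klrk1 promoter (1.53), Gzma body (3.44) and Il6ra body (0.655) were also past 1.5-fold against the direction in ending 2.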

How the results depend on the processing

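No named gene called past 1.5-fold turned its direction under the alternatives; of the values of named genes 1931 stayed within counting error and 201 moved, 53 of them with members chosen by the Il10 window alone. The balance of calls did turn: with weighting to the depth mix, sites were 7681 higher and 6309 lower and bodies turned as given below. With a floor of 5 per 1000 barcodes, 2937 promoters were higher and 1580 lower, 2983 and 1802 bodies, and 27781 and 29565 sites. With a floor of 50, which tests fewer features, the counts were 378 and 261, 671 and 540, and 1042 and 1572. Lower bodies, 907 as reported, were 1453 with comparison barcodes at 0 fragments, 1808 among barcodes of 5000 to 10000 fragments alone, where higher bodies were 1755 and higher sites 8689, and 2434 with comparison barcodes weighted to the depth mix of members, where higher bodies were 1157; the cause was not tested. That weighting moved the median log2 ratio of promoters and of sites by 0.13 and that of bodies by -0.12, and no other alternative moved a median by over 0.1. In that weighting, 87 members fell in a depth range without comparison barcodes. Counting fragment ends gave 1644 higher promoters and 8425 higher sites. Depth limits low features: at 5000 fragments per barcode, 16214 of 53838 promoters reached the floor. No paired analysis was possible because each class came from 1 library; a replicate block for bulk ATAC-seq was not run, as no such comparison was made.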

Other observations

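The promoters with the most fragments of all were 4 overlapping transcripts of chromosome 17 annotated over ribosomal RNA-like sequence, seen only after their values were examined. Gm26917 had levels of 9920 in members and 5659 in comparison barcodes (ratio 1.75), Gm42418 had a ratio of 1.86, AY036118 1.84 and CT010467.1 1.81. In ending 1 their ratios were 1.15 to 1.19, within 1.5-fold. Fragments of one cannot be told from those of the others, and no explanation was tested.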
